A study of Mus musculus with 14 samples.

Results

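The Slit ligands (Slit1, Slit2 and Slit3), the neuronal Robo receptors (Robo1, Robo2 and Robo3) and the srGAP proteins that act downstream of Robo (Srgap1, Srgap2 and Srgap3) were followed in cerebellar granule neuron progenitors (GNPs) from mice at postnatal day 7 that lacked Cre (WT) or carried Atoh1-Cre with 1 (Het) or 2 (Hom) floxed alleles of the chromatin remodeller Chd7. The 9 genes were listed by family name and found among the 41381 genes of the expression table by their Ensembl identifiers. The family was selected on the level of Slit1, which was much higher in the homozygous libraries than in WT. Slit1 stayed in the fits, but its levels, standard errors and calls are given as a description and not read as a test. The other members were taken with it as relatives, but earlier results of these data were known when the members and tests were chosen. Their tests are therefore not free of that knowledge. Of the 9 genes, 8 passed the filter on low values (a TPM, the length-scaled share of each gene in the transcripts of a library, of at least 1 in at least 4 libraries), and Slit3 did not.

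Slits are large secreted proteins that bind heparan sulphate and the extracellular domain of Robo receptors. Binding repels growth cones and migrating neurons, and the receptor passes the signal on through adaptors and through srGAPs, which act on the cytoskeleton and shape the membrane. Robo1 and Robo2 are the main Slit receptors of neurons. Robo3 is a divergent family member that is best known for letting commissural axons cross the midline, and in mammals it binds Slits poorly. In the hindbrain, Slit and Robo proteins guide cells that leave the rhombic lip, the birthplace of granule neurons.

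The paralogs resemble each other, so the share of reads that could be assigned to more than 1 of them was checked first. The coding sequences of paralogs were 62.6% to 70.6% identical over their aligned bases, but the longest stretch shared by any pair was 30 bases, between Srgap2 and Srgap3, while reads were 50 bases long. No stretch of 50 bases was shared between members. In Slit1, Slit2, Slit3, Robo1, Robo2, Robo3 and Srgap2, every stretch of this length in the longest coding transcript was absent from all other genes, and the share of such stretches was 99.26% in Srgap1 and 98.38% in Srgap3. The longest runs that Slit1 shares with its paralogs and Robo3 with its own are shown here, since Slit1 and Robo3 are the members that differed most between genotypes. The sequences are coding exons from GENCODE M21 transcripts (mouse GRCm38), read 5′ to 3′ on the strand of the gene, with the shared run in capitals and the bases beside it in lower case.
Slit1, run shared with Slit2, exons 10 and 11, chr19:41648557-41648995, minus strand: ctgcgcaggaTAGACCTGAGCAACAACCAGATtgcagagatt
Slit2, run shared with Slit1, exons 11 and 12, chr5:48210817-48211313, plus strand: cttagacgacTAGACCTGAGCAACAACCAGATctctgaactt
Slit1, run shared with Slit3, exons 17 and 18, chr19:41637588-41637792, minus strand: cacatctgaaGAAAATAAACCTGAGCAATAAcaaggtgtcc
Slit3, run shared with Slit1, exons 16 and 17, chr11:35623500-35629747, plus strand: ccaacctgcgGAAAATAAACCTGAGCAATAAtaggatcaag
Robo1, run shared with Robo3, exon 20, chr16:73001946-73001980, plus strand: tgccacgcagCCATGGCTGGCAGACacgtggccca
Robo3, run shared with Robo1, exon 20, chr9:37419753-37419787, minus strand: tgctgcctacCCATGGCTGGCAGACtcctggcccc
The exons and coordinates are those of the whole printed stretch, lower-case bases included. The printed stretches of Slit1 and Slit2 (run of 22 bases) and of Slit1 and Slit3 (run of 21 bases) each cross an exon junction. The coordinates of those 4 sequences therefore include an intron, and whether the junction lies within the shared run was not determined. The run of 15 bases in Robo1 and Robo3 lies within 1 exon of each gene.

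The members lie on 8 chromosomes of GRCm38. Slit1 spans 143.4 kb of chromosome 19 (41600257 to 41743665, minus strand), Slit2 spans 324.6 kb of chromosome 5 (47983138 to 48307733, plus strand) and Slit3 spans 587.3 kb of chromosome 11 (35121224 to 35708507, plus strand). Robo1 and Robo2 share chromosome 16, with Robo1 from 72308306 to 73046095 on the plus strand and Robo2 from 73891839 to 74411825 on the minus strand. Robo3 is the most compact member, with a span of 17.6 kb on chromosome 9 (37415669 to 37433246, minus strand). Srgap1 is on chromosome 10 (121780991 to 122047315), Srgap2 on chromosome 1 (131285251 to 131527352) and Srgap3 on chromosome 6 (112717971 to 112947266), all on the minus strand. Exons of other annotated genes overlapped only Srgap1, by 103 bases of Gm48804 on the same strand, and Srgap3, by 150 bases of Gm44081 on the opposite strand. The values were estimated without use of the strand, so reads from such stretches cannot be assigned with certainty.

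Total RNA was sequenced from GNPs purified on a Percoll gradient from mouse cerebella at postnatal day 7, without culture. The study's methods give the strain as C57BL/6N, and the labels as C57BL/6 or, for the first libraries deposited, C56Bl6/J. The 5 WT libraries carried floxed or wild-type Chd7 without Cre, the 5 Het libraries were Atoh1-Cre::Chd7 f/+ and the 4 Hom libraries were Atoh1-Cre::Chd7 f/f. Atoh1-Cre acts in granule neurons and other rhombic lip derivatives, so other cells that come through the gradient keep Chd7. The labels do not say whether libraries came from separate animals, so p-values measure only the spread between these libraries. Sequencing was done in 2 batches, the first with WT 1 to 3, Het 1 to 3 and Hom 1 and 2, and the second with WT 4 and 5, Het 4 and 5 and Hom 3 and 4. A TPM keeps no read number, so the depth of each library is unknown, and no counting error is given.

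Some facts of the libraries touch the results that follow. All 8 GNP markers (Atoh1 among them, at 20.8 to 50.6 TPM) were present in every library. Of 8 granule neuron markers, those of early neurons were also high (Neurod1 at 501 to 1032 TPM and Tubb3 at 402 to 751), while Gabra6, a late marker, stayed at or below 1.03 TPM. Grin2c, also low, was at 0.32 to 0.74 TPM in WT, 0.35 to 2.21 in Het and 2.21 to 4.89 in Hom. Of these 8 markers 7 were tested, and 3 were called lower in Hom and 1 higher, beside 1.41% and 1.27% of all genes tested. The summed level of the 8 was 2454 ± 264 TPM in WT and 1958 ± 197 in Hom. The part of this difference in the members' values was not tested. WT 1 to 3 and Het 3 stood apart from the other libraries. The summed level of 8 endothelial markers was 22.6 to 40.1 TPM in these 4 libraries and 126 to 521 in the other 10, with none of the 8 markers at 0. The summed level of 8 Purkinje cell markers was 93.9 to 196 TPM in the 4 libraries and 38.6 to 63.8 in the others, where Pcp2 and Skor2 reached 0 in some. The summed level of 8 astroglial markers was 1136 to 1821 TPM in the 4 libraries and 319 to 860 in the others. Chd7 itself ranged from 121 to 272 TPM in WT, from 137 to 181 in Het and from 126 to 185 in Hom, a change of -0.11 in Hom (limma adjusted p = 0.862). In batch 1 the mean Chd7 level was 135 TPM in the libraries labelled WT and 179 in those labelled Hom, against the labels, and in batch 2 it was 238 and 138. A level over the whole gene may count exons that the deletion leaves in place, so it is no full check of the labels. By qRT-PCR the study reported less Chd7 RNA in Het and Hom GNPs than in WT. By immunostaining it reported loss of the protein in granule cells of Hom mice. These assays were not analysed here. Neurod1, a granule neuron gene, was lower in Hom than in WT in both batches (means of 585 against 726 TPM and 522 against 952). The study had named Neurod1 as lowered by Chd7 loss from its own RNA sequencing of GNPs, so this is no independent check of the labels. WT, Het and Hom therefore stand for libraries labelled so.

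In WT GNPs, Srgap2, Srgap3, Robo1 and Robo2 were abundant, while the Slits and Robo3 were low. TPM is a value per transcript length, so levels can be compared between genes on this scale. Srgap2 was highest at 132.5 ± 17.9 TPM (SD, n = 5), followed by Robo2 at 63.4 ± 13.1, Srgap3 at 49.1 ± 7.55, Robo1 at 24.0 ± 5.56, Srgap1 at 8.42 ± 1.5 and Slit2 at 7.27 ± 1.30. Slit1 at 1.11 ± 0.32, Robo3 at 0.97 ± 0.51 and Slit3 at 0.46 ± 0.20 closed the order. The ranges of the 5 WT libraries overlapped between Robo2 and Srgap3, between Srgap1 and Slit2, between Slit1 and Robo3, and between Robo3 and Slit3, so the order of these neighbours was not larger than their spread. In Hom, Slit1 moved from place 7 to place 4 of the 9 genes, with a range (22.3 to 33.3 TPM) that overlapped that of Robo1 (23.2 to 28.7 TPM).

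**Figure D1:**
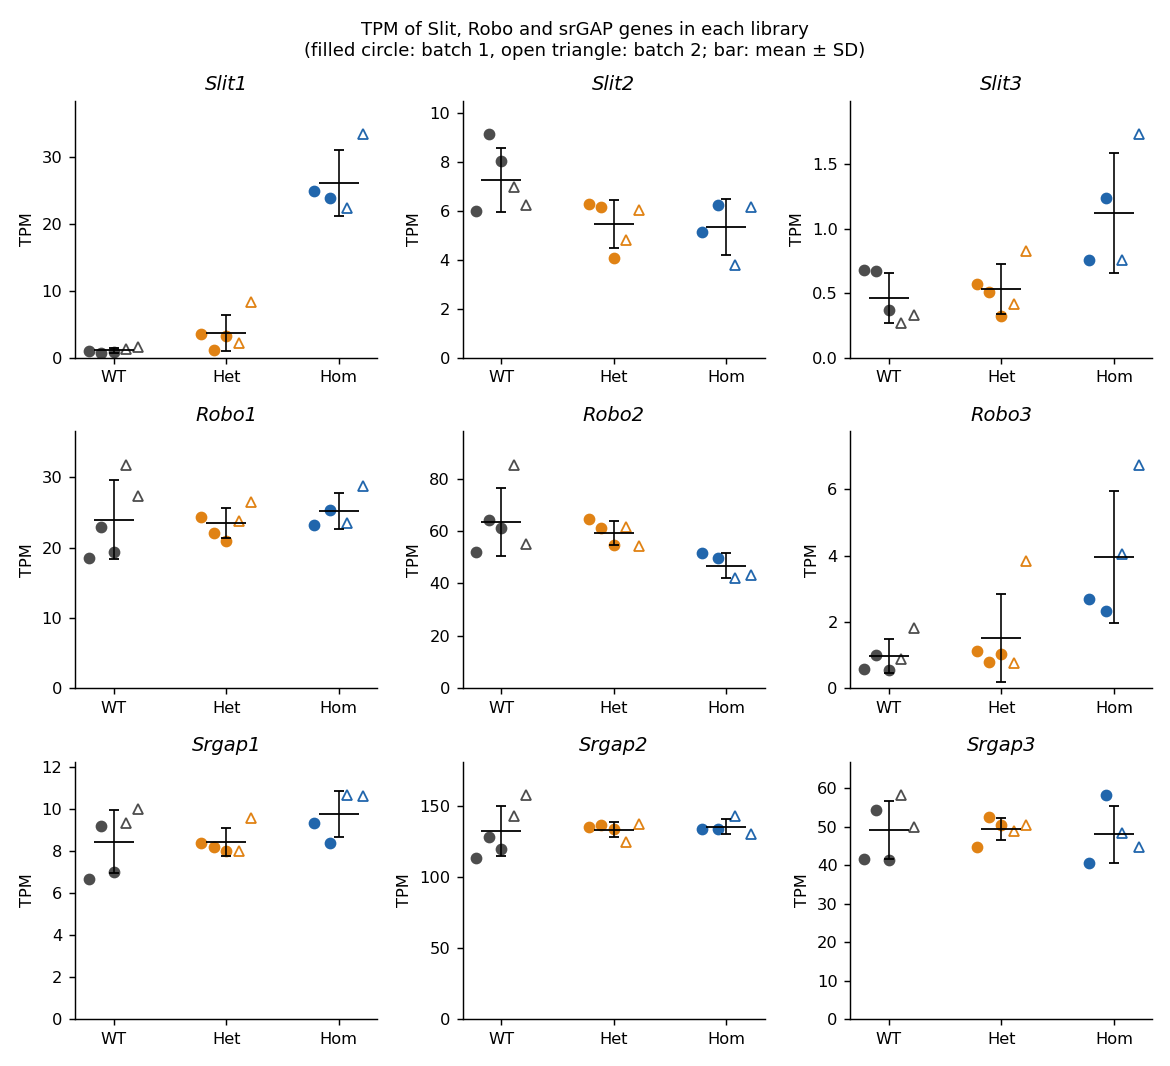
TPM (linear axis from 0, scaled per gene) of each of the 9 genes in 5 WT, 5 Het and 4 Hom libraries, with batch 1 as filled circles, batch 2 as open triangles and bars for the mean ± SD. Slit1, Slit3 and Robo3 sit higher in all 4 Hom libraries than in any WT library, as do 2.91% of all genes tested. Robo2 sits lower, as do 1.96%, while the srGAPs overlap.

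Beside Slit1, whose values are not read as a test, 1 receptor rose with the homozygous deletion, and no member fell by the main test. The test was limma on log2(TPM + 1) with genotype and batch as terms, and a gene was called at an adjusted p under 0.05 over all 17325 genes tested. In Hom against WT, Robo3 was called higher, and with Slit1, whose call was fixed by the selection, this makes 2 of the 8 members tested, beside 1.27% of all genes tested. None was called lower, beside 1.41% of all genes, while Slit2 and Robo2 were lower at an unadjusted limma p under 0.05, as were 6.42% of all genes (8.51% were higher at that p). Nothing is read from these counts, since Slit1 drew the list. In Het against WT no member was called in either direction by limma, beside 0.00577% of all genes higher and 0.0% lower. Slit1 aside, Slit2 was lower at an unadjusted limma p under 0.05 in Het, as were 2.88% of all genes (3.2% were higher). In Hom against Het, Slit1 aside, no member was called by limma (0.15% of all genes were called higher and 0.277% lower), with Robo3 higher and Robo2 lower at an unadjusted limma p under 0.05 (3.05% and 3.13% of all genes). The 3 comparisons share libraries, so they are not independent of each other. The median change of the 8 members in Hom was 0.05, compared with 0.02 over all genes tested.

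**Figure D2:**
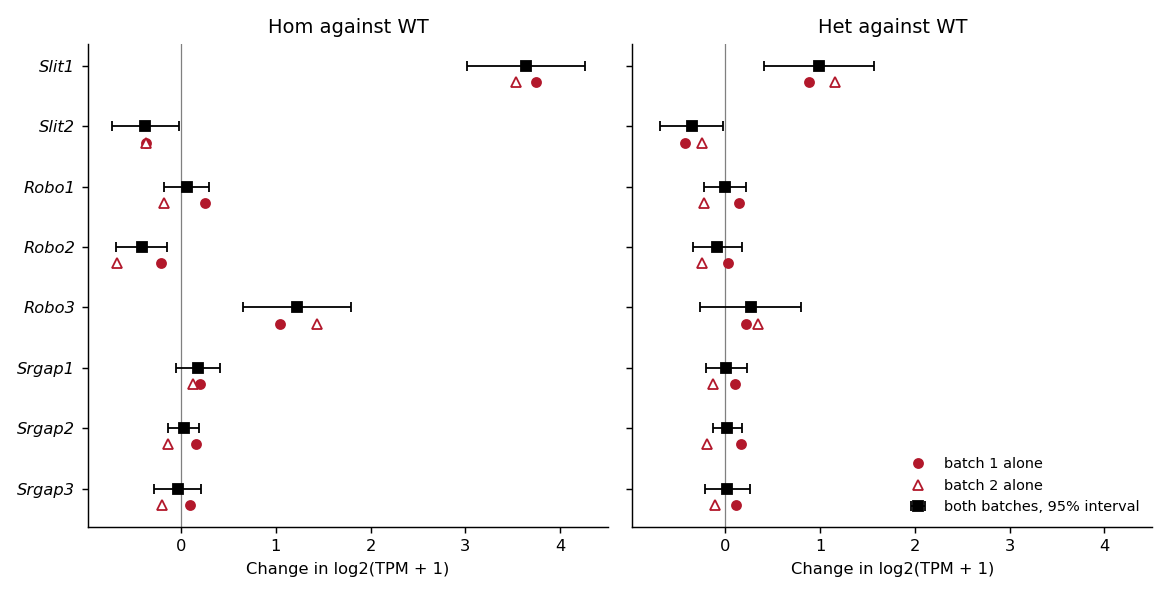
Change in log2(TPM + 1) of the 8 tested members in Hom (left) and Het (right) against WT, with 95% intervals from limma over both batches (squares) and the values within batch 1 (filled circles) and batch 2 (open triangles). The intervals of Slit1 are descriptive, since Slit1 drew the selection. In Hom, Slit1 at 3.64 and Robo3 at 1.22 lie to the right of 0 in both batches and Slit2 and Robo2 to the left. Srgap1 lies to the right at smaller values (0.20 and 0.13), and Robo1, Srgap2 and Srgap3 lie on both sides.

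Among the ligands, Slit1 changed from the second of the family to by far the most abundant. In WT it was at 0.98, 0.79, 0.88, 1.33 and 1.55 TPM. In Het it was at 3.49, 1.19, 3.23, 2.20 and 8.26 TPM, and in Hom at 24.9, 23.8, 22.3 and 33.3 TPM. No Hom library overlapped a WT or Het library, a pattern seen in the higher direction for 2.91% of all genes against WT and 1.11% against Het, and Het overlapped WT through Het 2 alone. The Hom mean of 26.1 TPM was 23.6 times the WT mean, and the ratio was 27.5 in batch 1 and 19.3 in batch 2. On the log2(TPM + 1) scale the difference from WT was 3.64 (SE 0.29) in Hom and 0.99 (SE 0.27) in Het. This placed the Het difference at 27.25% of the Hom difference, a share that depends on the value added before the log. With 0.1 added in place of 1, the differences were 4.41 in Hom and 1.41 in Het. The Het libraries spread widely, and without Het 5, the highest of them, the Het difference on the log2(TPM + 1) scale was 0.73. Since these are bulk samples, more cells with Slit1 RNA and more Slit1 RNA per cell cannot be told apart.

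The Slit1 level was set beside the endothelial marker sum, in which WT 1 to 3 and Het 3 stood apart. The Purkinje and astroglial sums, in which the same libraries stood apart, were not set beside it. Het 2, with the highest endothelial sum of all libraries (521 TPM), had Slit1 at 1.19 TPM, and Het 3, with the lowest (22.6 TPM), had it at 3.23. The endothelial sums of WT 4 and 5 and of Hom 3 and 4 were 244, 139, 242 and 341 TPM, and Slit1 was at 1.33 and 1.55 TPM in the former and at 22.3 and 33.3 in the latter. Without WT 1 to 3 and Het 3 the Hom difference was 3.70 on the log2 scale. The part of other cell types in the Slit1 values was not tested.

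Slit2, the most abundant Slit in WT, ran slightly lower in both mutant genotypes without passing the test. It was at 6.01, 9.13, 8.02, 6.98 and 6.23 TPM in WT, at 6.29, 6.17, 4.08, 4.83 and 6.03 in Het and at 5.14, 6.26, 3.81 and 6.15 in Hom. The genotypes overlapped, with the highest values in WT 2 and 3. The difference on the log2 scale was -0.38 (SE 0.16, limma adjusted p = 0.302) in Hom and -0.35 (SE 0.15, limma adjusted p = 0.802) in Het, with 95% intervals of -0.73 to -0.02 and -0.69 to -0.02. Purkinje and astroglial marker sums were also highest in WT 2, and their part in the Slit2 values was not tested. The Slit2 difference in Hom was -0.37 (SE 0.23, limma unadjusted p = 0.153) in batch 1 alone and -0.37 (SE 0.26, limma unadjusted p = 0.196) in batch 2 alone.

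Slit3 was the least abundant ligand, and only 2 of the 14 libraries reached 1 TPM. It was at 0.68, 0.67, 0.37, 0.27 and 0.33 TPM in WT, at 0.57, 0.51, 0.32, 0.42 and 0.83 in Het and at 0.76, 1.24, 0.76 and 1.73 in Hom. All Hom libraries were above all WT libraries, as they were for 2.91% of the genes tested, but Slit3 was outside the tested set. With the filter lowered to any value above 0 in 4 libraries, its difference in Hom was 0.52 (limma adjusted p = 0.144) and in Het 0.07 (limma adjusted p = 0.976). The introns of Slit2 and Slit3 each hold a copy of the Mir218 gene (Mir218-1 and Mir218-2), which were not analysed here.

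The changes added up to a different ligand mixture. The summed Slit level was 8.84 ± 1.14 TPM in WT (SD, n = 5), 9.68 ± 3.26 in Het (n = 5) and 32.5 ± 6.09 in Hom (n = 4). Slit1 made up 12.8%, 7.46%, 9.49%, 15.5% and 19.1% of the sum in WT, 33.7%, 15.1%, 42.3%, 29.5% and 54.6% in Het and 80.8%, 76.0%, 83.0% and 80.9% in Hom. Slit2 thus supplied most of the Slit RNA in every WT library (76.8% to 86.5%) and 14.2% to 20.0% in Hom. These shares rest on Slit1 and are given without a test. The ratio of Slit1 to Slit2 was 0.16 ± 0.06 in WT, 0.67 ± 0.44 in Het and 4.98 ± 0.89 in Hom, with Het 5 (1.37) as the only Het library above 1.

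**Figure D3:**
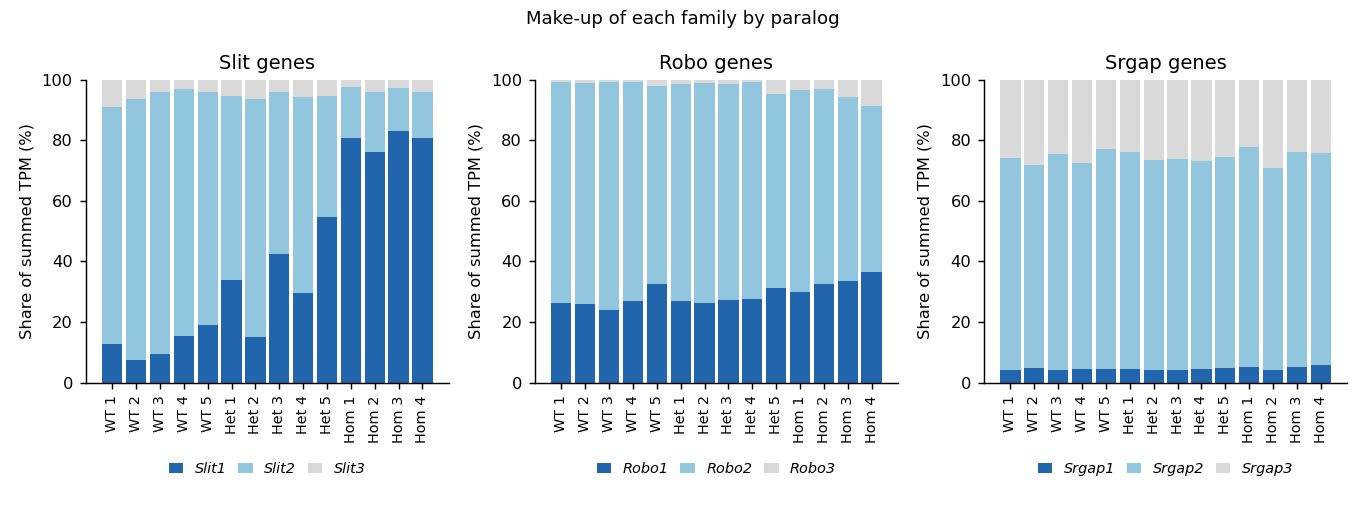
Share of each paralog in the summed TPM of its family (% on the vertical axis, 1 bar per library) for Slit, Robo and Srgap genes. Slit1 goes from 7.46 to 19.1% of the Slit sum in WT to 76.0 to 83.0% in Hom, Robo3 goes from 0.69 to 2.16% of the Robo sum to 3.00 to 8.57%, and the Srgap bars look alike in all libraries.

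Among the receptors, Robo3 rose in Hom, while Robo2 ran lower without passing the main test and Robo1 did not pass it in either genotype. Robo3 was at 0.59, 1.0, 0.56, 0.88 and 1.82 TPM in WT, at 1.14, 0.80, 1.03, 0.76 and 3.85 in Het and at 2.70, 2.33, 4.04 and 6.73 in Hom. Every Hom library was above every WT library, as for 2.91% of all genes tested. Every Hom library was also above Het 1 to 4, while Het 5 lay between Hom 1 and Hom 3. The mean went from 0.97 ± 0.51 TPM in WT to 3.95 ± 1.99 in Hom, a change of 1.22 (SE 0.26, 95% interval 0.66 to 1.79, limma adjusted p = 0.0245). The difference in Het was 0.27 (SE 0.25, limma adjusted p = 0.9), and without Het 5 it was 0.06. In Hom against Het the difference was 0.96 (SE 0.26, limma adjusted p = 0.22).

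The call of Robo3 was close to the threshold, although its direction was the same in each batch (1.04 in batch 1 and 1.44 in batch 2). Leaving out WT 1, WT 3, WT 4, Hom 1 or Hom 4 moved the limma adjusted p to 0.0511, 0.0585, 0.0667, 0.0689 and 0.0867, with changes of 1.21, 1.21, 1.10, 1.24 and 1.08. Without WT 1 to 3 and Het 3 the change was 1.37 (limma adjusted p = 0.145). With the replicate number as a block it was 1.44 (limma adjusted p = 0.0508), and without the batch term it was 1.28 (limma adjusted p = 0.0606). After removal of the batch means, the exact form of the Kruskal-Wallis test, with all 3 genotypes in it, gave p = 0.004178 for Robo3, under its threshold of 0.01, as for 2.42% of all genes in the higher direction.

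Robo2, the most abundant receptor, was at 51.9, 64.0, 61.0, 85.2 and 55.1 TPM in WT, at 64.4, 61.2, 54.6, 61.4 and 54.1 in Het and at 51.7, 49.9, 42.2 and 43.1 in Hom. All Hom libraries were below all WT libraries, by a margin of 51.86 against 51.70 TPM at the closest, and such a separation was found for 1.96% of the genes tested. They were also below all Het libraries, as for 1.06% of the genes. The difference in Hom was -0.42 (SE 0.13, 95% interval -0.69 to -0.15, limma adjusted p = 0.117), that in Het was -0.08 (SE 0.12, limma adjusted p = 0.947) and that in Hom against Het was -0.34 (SE 0.13, limma adjusted p = 0.578). The exact Kruskal-Wallis test gave p = 0.008967, under 0.01, as for 2.21% of all genes in the lower direction. This p is approximate for the reason given for Robo3. The size depended on the batch and on WT 4. It was -0.21 in batch 1 and -0.67 in batch 2 (limma unadjusted p of the batch difference 0.0705, adjusted 0.334), and without WT 4 it was -0.27 (limma adjusted p = 0.139). Without WT 1 to 3 and Het 3 it was -0.64 (limma adjusted p = 0.0973).

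Robo1 was at 18.6, 22.9, 19.4, 31.8 and 27.4 TPM in WT, at 24.3, 22.1, 21.0, 23.7 and 26.5 in Het and at 23.2, 25.3, 23.5 and 28.7 in Hom. Taken over both batches, the groups overlapped. The difference was 0.06 (SE 0.11, 95% interval -0.18 to 0.30, limma adjusted p = 0.858) in Hom and -0.01 (SE 0.10, 95% interval -0.23 to 0.22, limma adjusted p = 0.996) in Het. WT 4 and 5 were higher than WT 1 to 3. The direction in Hom therefore turned with the batch, with 0.25 in batch 1 and -0.18 in batch 2, a difference between batches of -0.43 (limma unadjusted p = 0.0448, adjusted p = 0.278).

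The summed Robo level was 88.4 ± 17.6 TPM in WT (n = 5), 84.2 ± 4.80 in Het (n = 5) and 75.8 ± 4.12 in Hom (n = 4). The log2 difference of the sum, averaged over batches, was -0.23 in Hom (exact permutation test within batches, two-sided p = 0.1667, of which the smallest possible is 0.01667) and -0.08 in Het (exact permutation test, two-sided p = 0.75). Robo2 and Robo1 dominated the sum in every library. Averaging log2(TPM + 1) over the paralogs instead, which gives the low Robo3 equal weight, turned the Hom difference to 0.28 (exact permutation p = 0.05). The ratio of Robo1 to Robo2 was 0.38 ± 0.07 in WT, 0.40 ± 0.05 in Het and 0.55 ± 0.09 in Hom, and WT 5 (0.50) and Het 5 (0.49) lay within the Hom range of 0.45 to 0.67. The ratio of summed Slit to summed Robo was 0.10 ± 0.02 in WT, 0.11 ± 0.04 in Het and 0.43 ± 0.07 in Hom. Both ratios were taken with the values known and are given without a test.

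The srGAPs, which link Robo to the actin cytoskeleton, did not pass the test in either mutant genotype. Srgap2 was at 114 to 158 TPM in WT (median 128.6), 125 to 138 in Het (median 135.3) and 131 to 143 in Hom (median 134.1). Srgap3 was at 41.3 to 58.2 TPM in WT, 44.8 to 52.5 in Het and 40.7 to 58.2 in Hom, and Srgap1 at 6.65 to 9.99, 7.97 to 9.54 and 8.37 to 10.6. The Hom differences were 0.18 for Srgap1, 0.03 for Srgap2 and -0.04 for Srgap3 (limma adjusted p = 0.488, 0.906 and 0.931), with 95% intervals of -0.06 to 0.41, -0.13 to 0.19 and -0.29 to 0.22. The Het differences were 0.01, 0.02 and 0.02 (limma adjusted p = 0.992, 0.985 and 0.986). The sign of the Hom difference turned with the batch for Srgap2 and Srgap3, and with median-ratio scaling for Srgap2. For Srgap2 the Hom difference fell by 0.29 from batch 1 to batch 2 (limma unadjusted p = 0.0251, adjusted p = 0.227). The summed Srgap level was 190.0 ± 24.8 TPM in WT, 191.4 ± 6.74 in Het and 193.2 ± 9.46 in Hom (exact permutation test of Hom against WT, two-sided p = 0.9833).

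Other genes of the pathway were taken from lists of membrane partners (19 genes) and of effectors inside the cell (26 genes), all of which were tested. Of the partners, 2 rose in Hom and 1 fell (1.27% and 1.41% of all genes), with 5 higher and 3 lower at an unadjusted limma p under 0.05 (8.51% and 6.42% of all genes), and the median change was 0.06. Gpc1, a glypican that carries the heparan sulphate to which Slits bind, was at 64.5 to 79.9 TPM in WT and 73.7 to 117 in Hom, a change of 0.35 (SE 0.08, limma adjusted p = 0.0445). Cxcr4, the chemokine receptor that holds GNPs at the pial surface and whose signal Slit can dampen, was at 53.95 to 117 TPM in WT and 102 to 137 in Hom, a change of 0.73 (SE 0.18, limma adjusted p = 0.0498). Flrt3, a transmembrane protein that acts as a Robo1 coreceptor, was at 18.9 to 36.0 TPM in WT and 12.0 to 17.5 in Hom, a change of -0.70 (SE 0.16, limma adjusted p = 0.0353). Only for Flrt3 of these 3 did the groups not overlap over both batches, a separation found in the lower direction for 1.96% of all genes tested. These 3 calls lay close to the threshold. In turn, the call was lost in 8, 9 and 5 of 14 other settings and in 11, 10 and 7 of 14 fits without 1 library, at changes of 0.28 to 0.42 for Gpc1, 0.62 to 0.91 for Cxcr4 and -0.80 to -0.54 for Flrt3 in the latter. Without WT 1 to 3 and Het 3 the values were 0.44 for Gpc1 (limma adjusted p = 0.0889), 0.43 for Cxcr4 (limma adjusted p = 0.42) and -1.10 for Flrt3 (limma adjusted p = 0.0184). The Flrt3 change was -0.33 in batch 1 alone and -1.15 in batch 2 alone.

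Robo4, the Robo of endothelial cells, had the largest difference of the partners, 1.33 (SE 0.57, limma adjusted p = 0.293). It was at 0.47, 0.83 and 0.90 TPM in WT 1 to 3 and 0.43 in Het 3, and at 3.39 to 14.2 TPM in the other 10 libraries, the same split as that of the endothelial sum given above. Without WT 1 to 3 and Het 3 the difference was 0.22 (limma adjusted p = 0.873). Of the effectors no gene was called by limma in Hom, beside 1.27% and 1.41% of all genes, with 1 higher and 1 lower at an unadjusted p under 0.05, beside 8.51% and 6.42%, and the median change was 0.04. The largest differences were those of Pak1, a kinase activated by Rac and Cdc42, at -0.27 (SE 0.07, limma adjusted p = 0.0704), and Sos1, an exchange factor for Ras and Rac, at 0.20 (SE 0.09, limma adjusted p = 0.301). Pak1 was lower in all 4 Hom libraries (30.8 to 36.5 TPM) than in any WT library (36.6 to 44.9 TPM), as were 1.96% of all genes tested. The margin was 36.57 against 36.49 TPM at the closest. Pak1 passed the test under 3 of 14 other settings. In Het no gene of either list was called by limma, beside 0.00577% of all genes higher and 0.0% lower, with 2 partners higher, 2 partners lower and 1 effector higher at an unadjusted p under 0.05, beside 3.2% higher and 2.88% lower.

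**Figure D4:**
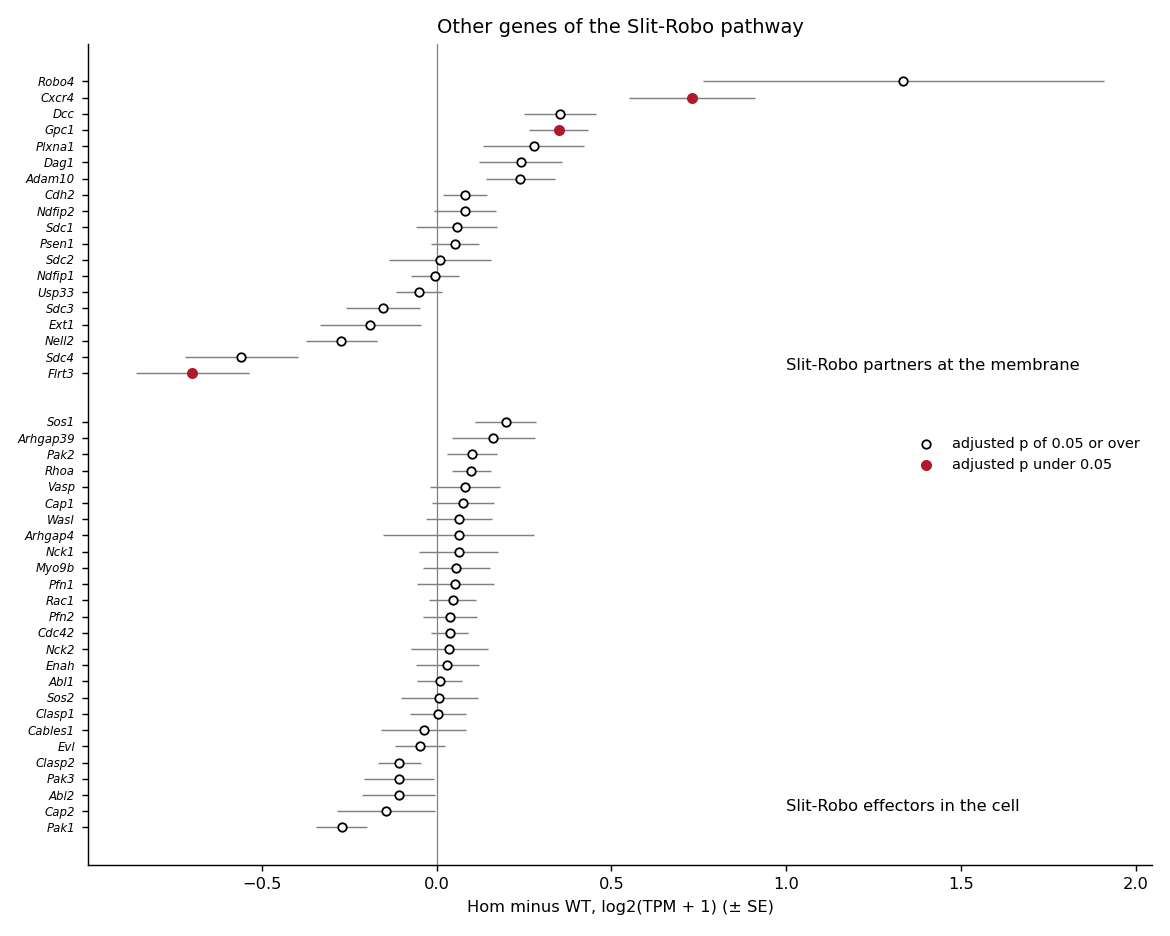
Hom minus WT difference in log2(TPM + 1), with SE, of 19 membrane partners (top) and 26 intracellular effectors (bottom), each row 1 gene, ordered by size. Filled points mark the 3 genes with a limma adjusted p under 0.05, and the effectors lie between -0.27 and 0.20 with none filled.

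The neighbours of Slit1 on chromosome 19 were looked at to see whether they moved with it. Within 500 kb of either end the annotation holds 27 genes, of which 20 were tested. None was called by limma (1.27% of all genes were called higher and 1.41% lower), with 5 at an unadjusted p under 0.05 (8.51% and 6.42%), and their differences in Hom ran from -0.26 for Morn4 to 0.37 for Rrp12 (limma adjusted p = 0.0766), with a median of 0.07. The nearest tested genes were Mir8091 at 11.5 kb and Gm340 at 13.7 kb beyond the 3′ end of Slit1 and Arhgap19 at 22.9 kb beyond its 5′ end. The difference of Arhgap19 was 0.08. One untested neighbour, Sfrp5, lies 454.3 kb beyond the 5′ end of Slit1. It was at 0.0 to 0.22 TPM in WT, 0.07 to 1.32 in Het and 0.52 to 1.96 in Hom. All Hom libraries were thus above all WT libraries, as for 2.91% of the genes tested, but at values near the floor.

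**Figure D5:**
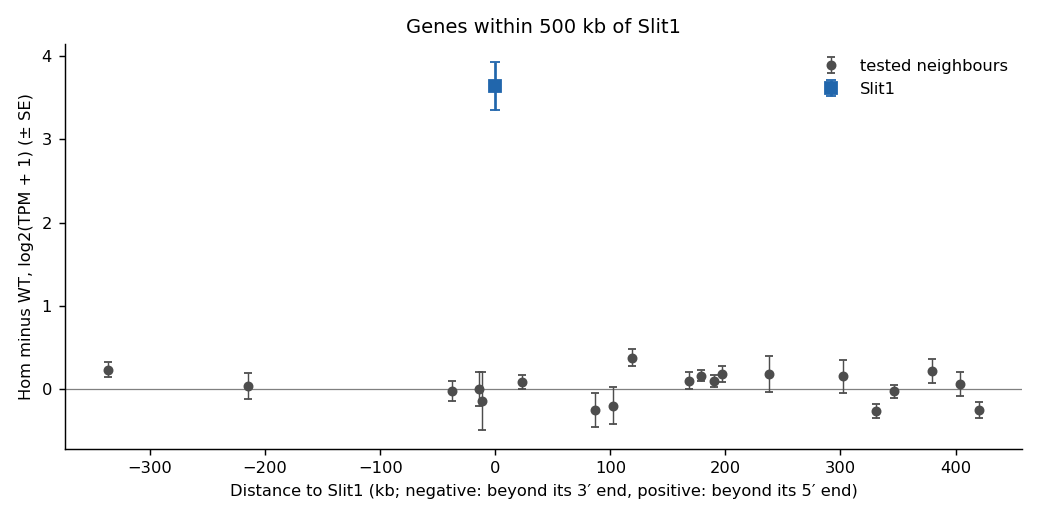
Hom minus WT difference in log2(TPM + 1), with SE, of Slit1 (square, at 0 kb) and its 20 tested neighbours (circles) against the distance between gene and Slit1 in kb. The neighbours lie between -0.26 and 0.37, and Slit1 lies at 3.64.

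Likeness to Slit1 was measured as the Pearson correlation of log2(TPM + 1) with the fitted batch term removed, over all 14 libraries. The libraries share genotype, so a high value marks genes that also differ between genotypes, and no p is given. Among the 12686 genes with a mean of at least 5 TPM in a genotype, the most alike were Fgfr4 (a receptor for fibroblast growth factors), Prmt8 (an arginine methyltransferase of neurons), Ntng2 (netrin-G2, a membrane-anchored netrin relative), Mgat5 (an enzyme that branches N-glycans) and 6530402F18Rik, with r from 0.965 to 0.972. Fgfr4 had a mean of 6.26 TPM in WT, 9.78 in Het and 19.3 in Hom, and Ntng2 of 7.62, 9.87 and 24.5. Het 5 was the highest Het library for each of the 5 genes, as for Slit1, with Fgfr4 at 14.1 and Ntng2 at 14.4 TPM there. Of the members, Robo3 was the most like Slit1, with r = 0.91 and place 54 of 17324 genes, and Robo2 the least, with r = -0.72. The genes most like Robo3 were Actc1 (a cardiac actin), Nalcn (a sodium leak channel), D430042O09Rik, Mical2 (an enzyme that oxidizes actin) and Akna, with r from 0.958 to 0.966. Actc1 was at 6.29 TPM in Het 5 and at 1.26 to 1.38 in the other Het libraries, and Nalcn was at 8.89 in Het 5 and at 4.47 to 5.67 in the others.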

How the data were processed

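The authors mapped single-end reads of 50 bases to the mm10 Ensembl transcriptome with Bowtie 1.0.0, estimated expression with RSEM 1.2.15 at default settings and deposited 1 table of TPM (length-scaled transcript shares with the same sum in each library) for 41381 genes in 14 libraries. TPM compares genes per length, but a large change of an abundant gene shifts all others. The columns named Con were read as WT, number by number. Symbols and positions came from GENCODE M21.

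From these values, log2(TPM + 1) was fitted with limma 3.58.1 in R 4.3.3 (intensity trend, genotype and batch as terms, all 14 libraries) for 17325 genes with at least 1 TPM in at least 4 libraries. P-values were two-sided with Benjamini-Hochberg adjustment over all genes tested. The difference between batches was an interaction term. The study used a Kruskal-Wallis test after ComBat. Here the batch term, fitted beside genotype, was removed with limma, and ComBat was not run. An exact Kruskal-Wallis test over 252252 arrangements of the adjusted values was an alternative. Its arrangements took no account of batch or of the batch fit, so its p-values are approximate. Sums of paralogs were compared by exact permutation of genotypes within batches. The scripts were tested on simulated data.

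The members, gene lists and tests were chosen with earlier results of these data known. Genes named were the 9 members, Robo4, each listed pathway gene called, the 2 with the largest Hom change per list, tested genes within 500 kb of Slit1, the 5 genes most like Slit1 and Robo3, and Chd7. The untested neighbour Sfrp5 was named after seeing the data. Alternatives were pseudocounts of 0.1 and 0.5, other filters (any value above 0, a mean of at least 5 TPM), median-ratio scaling, quantile normalization, array weights, only the genotypes compared, no batch term, each batch alone, Het 3 moved to batch 2 (its label has the form of the later libraries), a replicate block and leaving out each library. The omission of WT 1 to 3 and Het 3 and the alternatives for the pathway genes were added after seeing the data.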

Additional observations from a re-analysis of the deposited data

Results flagged for a closer look

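Of 36 groups of libraries in which the highest and lowest values were compared with the rest by Dixon's criterion, 3 held a value far from the others, and chance gives about 1 in 20. Robo3 in Het 5 was at 3.85 TPM, with the nearest Het library at 1.14. Srgap1 in Het 5 was at 9.54 TPM, with the nearest Het library at 8.38. The summed Robo level in Hom 3 was 69.69 TPM, with the nearest Hom library at 77.54.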

How the results depend on the processing

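Slit2 and Robo2 were lower in Hom in every alternative and with any library left out, and Robo3 was higher in all in which it was tested. Slit1 was higher in all of them, which its selection fixed in advance, so nothing is read from it. Of the members, 2 were called higher in Hom, namely Robo3 and, by its selection, Slit1. The number was 1 with a mean of at least 5 TPM (which left Robo3 untested), without the batch term and in batch 1 alone. It was also 1 with the replicate block and without WT 1 to 3 and Het 3. In batch 2 alone, which has 6 libraries, it was 0. Leaving out single libraries gave 1 to 2. The number called lower in Hom was 1 (Robo2) by the exact Kruskal-Wallis test, whose p is approximate after the batch adjustment. The number called higher in Hom against Het, which otherwise counted Slit1 alone, was 0 in batch 2 alone. Correlations of residuals ran from -0.23 to 0.26 for same-numbered libraries and from -0.30 to 0.33 for differently numbered ones. Whether replicate numbers pair the libraries is not settled by these values. In the fit with the replicate block Robo3 was the only member whose call was lost.

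Sums and small differences changed sign. The summed Robo difference in Hom was 0.28 as a mean of logs and -0.36 to -0.11 with a library left out. The summed Srgap difference was -0.0275 with median-ratio scaling and -0.0281 to 0.0393 with a library left out. In Hom, Robo1 was at -0.18 in batch 2 alone and -0.17 without WT 1 to 3 and Het 3. Srgap2 was at -0.000463 with median-ratio scaling, -0.14 in batch 2 alone, -0.16 without those 4 libraries and -0.0114 to 0.0922 with single libraries left out, and Srgap3 at 0.0989 in batch 1 alone and -0.16 to 0.0364. In Het, Robo1 was at 0.14 in batch 1 alone, 0.0522 with array weights and -0.0634 to 0.0687 with single libraries left out, and Robo2 at 0.0283 in batch 1 alone and -0.15 to 0.0487. Srgap1 was at -0.13 in batch 2 alone, -0.028 with Het 3 in batch 2, -0.0861 without the 4 libraries and -0.0422 to 0.0673. Srgap2 was at -0.00997 with quantile normalization, -0.20 in batch 2 alone, -0.000264 with Het 3 in batch 2, -0.18 without the 4 libraries and -0.0239 to 0.0773. Srgap3 was at -0.11 in batch 2 alone, -0.14 without the 4 libraries and -0.031 to 0.083. The cause was not tested.

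The depth of each library is unknown, which limits what can be said of Slit3, Robo3 and Slit1 in WT, all near 1 TPM. The Kruskal-Wallis test is over all genotypes at once and was not run for Het alone.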
